A study of Mus musculus with 4 samples.

Results

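The genes described here carry glucose into the heart muscle cell, break it down to pyruvate and lactate, store it as glycogen and release it again, together with the receptors and adaptors through which insulin and insulin-like growth factor 1 act on these steps. They were a list of 42 mouse genes set by symbol and not by a filter on measured values. The list was chosen with earlier results of these data known. A probe carrying the symbol was found on the array for 39 of them. Gpi1, Pfkfb1 and Eno1 were not matched to a named probe and were not analysed here. The 39 genes had 42 probes, of which 40 were brighter than background on at least 2 arrays, and each of the 39 genes kept at least 1 probe. They are set against the 15955 genes kept over the whole array.

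The samples were ventricular muscle of male 129SV mice, 2 labelled wild type and 2 labelled TRPC6 knockout (Trpc6-/-). TRPC6 is a cation channel that admits calcium after receptor stimulation, and the deletion is described as genetic, with no promoter or Cre driver named. The labels state neither age nor whether the 2 samples of a group came from different animals, so p-values reflect how far these samples lie apart, and that spread may be technical. Total RNA was amplified, labelled with Cy5 and hybridised in 1 colour, 1 sample per array.

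Glucose enters heart cells through facilitative transporters, and the insulin-responsive one, GLUT4 (Slc2a4), moves to the cell surface when insulin binds its receptor and activates the IRS proteins and AKT2. Hexokinase traps the glucose, phosphofructokinase commits it to glycolysis, and a chain of abundant enzymes carries it to pyruvate, which lactate dehydrogenase interconverts with lactate. Many steps have a muscle form and a form typical of other tissues, encoded by different genes, which is why isozymes are given separately below.

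The typical probe was dim, with a median of 95.5 to 106 units per array where blank spots had 78.4 to 87.5, and 76.3% to 83.2% of gene probes were above background. Heart muscle was borne out by its markers, since all 15 cardiomyocyte genes of a fixed list, such as Myh6 and Tnnt2, were above background on every array. The ventricular part of the label was not checked this way, since 5 of 6 atrial markers were above background on every array too. The Trpc6 probe was above background on no array, reading 80.5, 89.2, 84.1 and 82.6 units in the array order given next, so it does not check the genotype labels. Values below are log2 intensities after background correction and quantile normalization, listed for wild-type arrays 1 and 2 and then knockout arrays 1 and 2. Intensities of different probes are not compared, because probes differ in how strongly they bind. In whole muscle, fewer cells of a type and less RNA per cell cannot be told apart.

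In the main setting, with the correction and normalization given above, differences between knockout and wild type were small. The median log2 fold change (knockout minus wild type) was 0.03 over the 39 genes and 0.00166 over all genes. Over all genes 51.1% lay higher in the knockout, the share beside which later counts of higher genes in this setting stand. Among the 39 genes 24, or 61.5%, lay higher and 15 lower. None reached an adjusted p under 0.05 in limma's moderated test with Benjamini-Hochberg adjustment over all genes, where 0% of all genes did. The smallest adjusted p among the 39 was 0.727. Of the 39, 5 had an unadjusted p under 0.05, or 12.8%, against 6.74% of all genes. Of these, 4 were higher in the knockout (Igf1r, Pgam1, Ugp2 and Slc16a1), where 3.67% of all genes were, and Ldha was lower, where 3.08% were. The groups did not overlap in 22 of the 39, or 56.4%, against 36.8% of all genes. In 15 of these both knockout arrays were higher, against 19.4% of all genes, and in 7 both were lower, against 17.4%. No gene of the 39 differed by as much as 0.58 on the log2 scale in this setting. Other settings gave larger values, such as -1.70 for Ugp2 and 0.775 for Pkm with local background subtracted. For Irs2 the value was -1.02 without wild-type array 1.

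The median and the counts of higher and lower genes moved with single arrays. Without wild-type array 2 the median was -0.003 with 18 genes higher and 21 lower. Leaving out wild-type array 1 gave a median of 0.056, with 26 higher and 13 lower. It was 0.01 without knockout array 1, with 23 higher and 16 lower, and 0.034 without knockout array 2, with 25 and 14. Wild-type array 2 was the lowest of the 4 for 20 of the 39 genes, or 51.3%, against 32.3% of all genes, and wild-type array 1 was the lowest for 3, or 7.69%, against 22.5%. Knockout array 2 was the highest for 13, or 33.3%, against 26.2%. With local background subtracted from each spot the median was -0.059, with 13 genes higher and 26 lower.

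**Figure D1:**
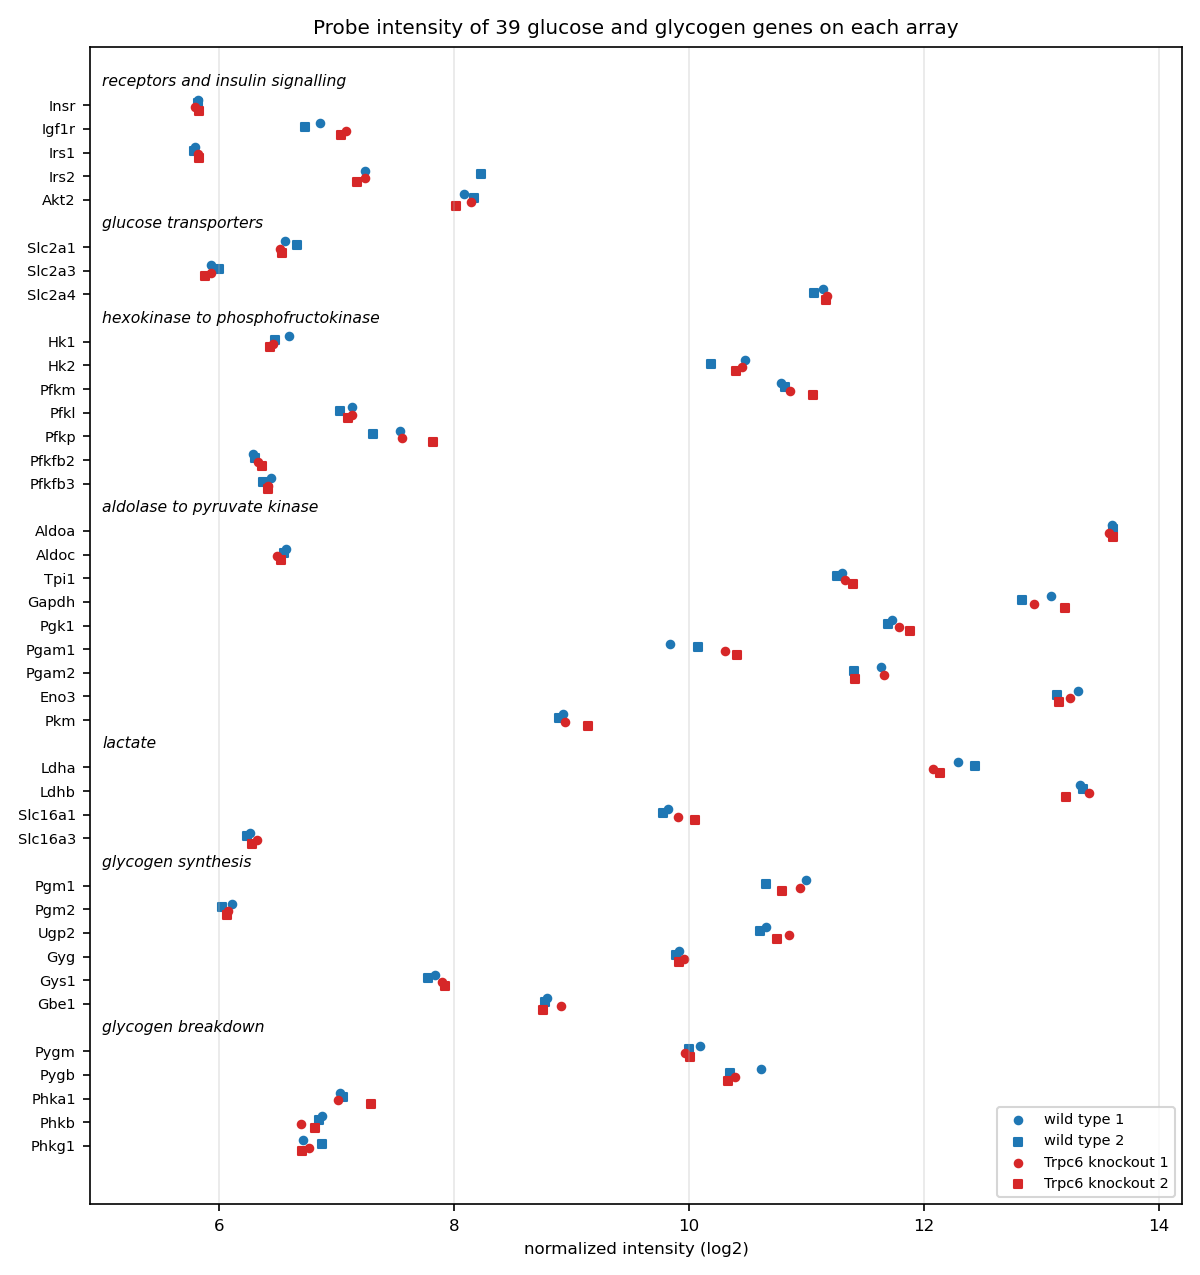
Normalized log2 intensity (horizontal axis) of the 39 genes on each of the 4 arrays, grouped by step, with 1 point per array, blue for wild type and red for Trpc6 knockout, circles for array 1 and squares for array 2. Most genes have their 4 points close together, and Irs2 on wild-type array 2 lies far from its other 3 points.

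Among receptors and adaptors, Igf1r, the receptor of insulin-like growth factor 1, had the smallest p of the 39. Its spot read 142, 146, 159 and 158 units, and its log2 intensity was 6.86, 6.73, 7.07 and 7.04. Both knockout arrays were above both wild-type arrays. The log2 fold change was 0.26 ± 0.06 (SE), 1.20-fold, with an unadjusted limma p of 0.00755 and an adjusted p of 0.727, and it was -0.20 with local background subtracted. The probe lay at 1.59 times the background threshold on its dimmest array, where the correction shrinks fold changes. It was 0.45 with a correction offset of 0 and 0.48 in the authors' deposited table, whose values for Igf1r averaged 54.4 and 75.2 units.

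The insulin receptor gene, Insr, could hardly be read, since its spot was above background on 1 array of each group. Its log2 intensity was 5.81, 5.82, 5.80 and 5.83, and the 95% interval of the fold change, -0.11 to 0.10, applies to a shrunken scale. Irs1, an adaptor that carries the insulin signal, was likewise above background on 1 array of each group with its brighter probe, and its other probe was not kept. Its log2 intensity was 5.79, 5.78, 5.82 and 5.83, close to that of a blank spot.

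Irs2, the second adaptor, differed by 1 sample. Its spot read 178 units on wild-type array 1, 355 units on wild-type array 2, and 174 and 170 units in the knockout, or 7.24, 8.23, 7.24 and 7.18 on the log2 scale. The groups did not overlap, yet wild-type array 1 was level with knockout array 1. The fold change of -0.53 ± 0.33 had an unadjusted p of 0.177. It was -0.04 without wild-type array 2 and -1.02 without wild-type array 1. Txnip, an inhibitor of glucose uptake, was also highest on wild-type array 2, at 11.25 against 10.46 to 10.66 on the other arrays, and was looked up after its values were seen. Akt2, the kinase that sends GLUT4 to the surface, was at 8.08, 8.17, 8.14 and 8.01, with overlapping groups.

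The glucose transporter isoforms lay on both sides of 0. Slc2a4 (GLUT4) was bright at 2232, 2397, 2340 and 2175 units, at least 26.1 times background, and stood at 11.14, 11.07, 11.18 and 11.16 after normalization. Slc2a1 (GLUT1), the basal transporter, read 118 to 140 units and was at 6.56, 6.66, 6.51 and 6.53. Slc2a3 (GLUT3), known from neurons, was 1.04 times background on its dimmest array and read 86.6, 99.5, 89.5 and 86.6 units. After normalization each of the 3 separated by group, Slc2a4 higher in the knockout by 0.07 ± 0.04 and the others lower, by -0.09 ± 0.05 and -0.07 ± 0.05. Unadjusted p-values were 0.205, 0.138 and 0.226. Slc2a1 and Slc2a3 lost this sign when local background was subtracted, at 0.08 and 0.003. The difference of Slc2a3 was -0.36 with an offset of 0 and -0.57 in the authors' deposited table, where its limma p was 0.031 unadjusted.

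At the entry to glycolysis, Hk2, the insulin-regulated hexokinase of muscle, was at 10.48, 10.19, 10.45 and 10.40, and only wild-type array 2 stood apart. Hk1, the hexokinase most tissues share, was at 6.60, 6.47, 6.46 and 6.43 and lay at 1.34 times background on its dimmest array. Their fold changes were 0.09 ± 0.11 and -0.09 ± 0.06. The sign of Hk2 turned without wild-type array 2, at -0.05.

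The phosphofructokinase subunits are Pfkm of muscle, Pfkl of liver and Pfkp, named for platelets. Pfkm was at 10.79, 10.82, 10.86 and 11.06, so that knockout array 2 stood above the other 3. The SD was 0.02 in wild type and 0.14 in the knockout (n = 2 each). Its fold change was 0.16 ± 0.08 with an unadjusted p of 0.103, was 0.06 without knockout array 2, and turned to -0.31 with local background subtracted. Pfkp was at 7.53, 7.31, 7.56 and 7.82, with a fold change of 0.27 ± 0.12 and an unadjusted p of 0.0863. Knockout array 1 lay just above wild-type array 1. Without knockout array 2 the fold change of Pfkp was 0.13, and without knockout array 1 it was 0.40. Pfkl was at 7.13, 7.03, 7.13 and 7.09, with overlapping groups.

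Pfkfb2 and Pfkfb3 make fructose 2,6-bisphosphate, the activator of phosphofructokinase, and Pfkfb2 is the form known from heart. Both were dim. Pfkfb2 was at 6.28, 6.30, 6.33 and 6.37 with its brighter probe, and Pfkfb3 at 6.43, 6.37, 6.41 and 6.41. The fold changes were 0.06 ± 0.04 and 0.01 ± 0.04. Of the 7 measured genes from hexokinase to this regulatory pair 6 lay higher in the knockout, but 3 did without wild-type array 2, 4 with median scaling and 3 with local background subtracted.

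Aldolase splits the phosphorylated sugar, and the enzymes after it harvest ATP on the way to pyruvate. Aldoa, the muscle aldolase, read 11582 to 13620 units and was at 13.60, 13.61, 13.58 and 13.61, a difference of -0.01 ± 0.04. Its 95% interval of -0.11 to 0.09 was among the narrower ones, but the difference was -0.82 with local background subtracted. Aldoc, the brain form, was at 6.57, 6.55, 6.49 and 6.52 and differed by -0.06 ± 0.04. Tpi1, which interconverts the triose phosphates, was at 11.30, 11.26, 11.33 and 11.40. Its fold change of 0.083 ± 0.045 turned to -0.445 with local background subtracted.

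Gapdh, often used as a reference gene, varied within both groups. It was at 13.08, 12.84, 12.94 and 13.21, with an SD of 0.17 in wild type and 0.19 in the knockout (n = 2 each). Its fold change of 0.11 ± 0.13 turned sign without wild-type array 2 (-0.009), without knockout array 2 (-0.02) and with local background subtracted (-0.79). Pgk1, phosphoglycerate kinase, was at 11.73, 11.70, 11.79 and 11.88, with both knockout arrays higher, a fold change of 0.12 ± 0.05 and an unadjusted p of 0.0615. It was -0.12 with local background subtracted.

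Pgam1, the phosphoglycerate mutase of brain and most other tissues, had the largest difference among the genes at an unadjusted p under 0.05. Its spot read 936, 1209, 1277 and 1336 units, or 9.84, 10.08, 10.30 and 10.41 on the log2 scale. Both knockout arrays were higher, and the SD was 0.17 in wild type and 0.07 in the knockout (n = 2 each). The fold change was 0.39 ± 0.09, 1.31-fold, with an unadjusted limma p of 0.0111 and an adjusted p of 0.727. It kept its sign in all 15 alternatives, between 0.27 and 0.69. Of these, the dim-probe filters, the variance trend, the replicate block and the mean of its 1 kept probe cannot move it. The unadjusted p was 0.0653 without knockout array 2 and 0.0538 in the authors' deposited table, and lay between 0.00118 and 0.0653 over all alternatives.

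Pgam2, the muscle mutase, was at 11.64, 11.40, 11.66 and 11.41, and each group held 1 higher and 1 lower array. The fold change was 0.02 ± 0.12, with a 95% interval of -0.31 to 0.34. Eno3, the muscle enolase, was at 13.31, 13.13, 13.24 and 13.15 with the probe that was kept, and its second probe was above background on no array. Pkm, pyruvate kinase, was at 8.93, 8.89, 8.95 and 9.14, and its fold change of 0.13 ± 0.08 became 0.03 without knockout array 2 and 0.775 with local background subtracted, where the unadjusted limma p was 0.000724. Among the 9 measured genes from aldolase to pyruvate kinase 6 lay higher. The count was 4 without wild-type array 2, 5 with median scaling and 2 with local background subtracted, but 7 without wild-type array 1 and 8 in the authors' deposited table.

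**Figure D2:**
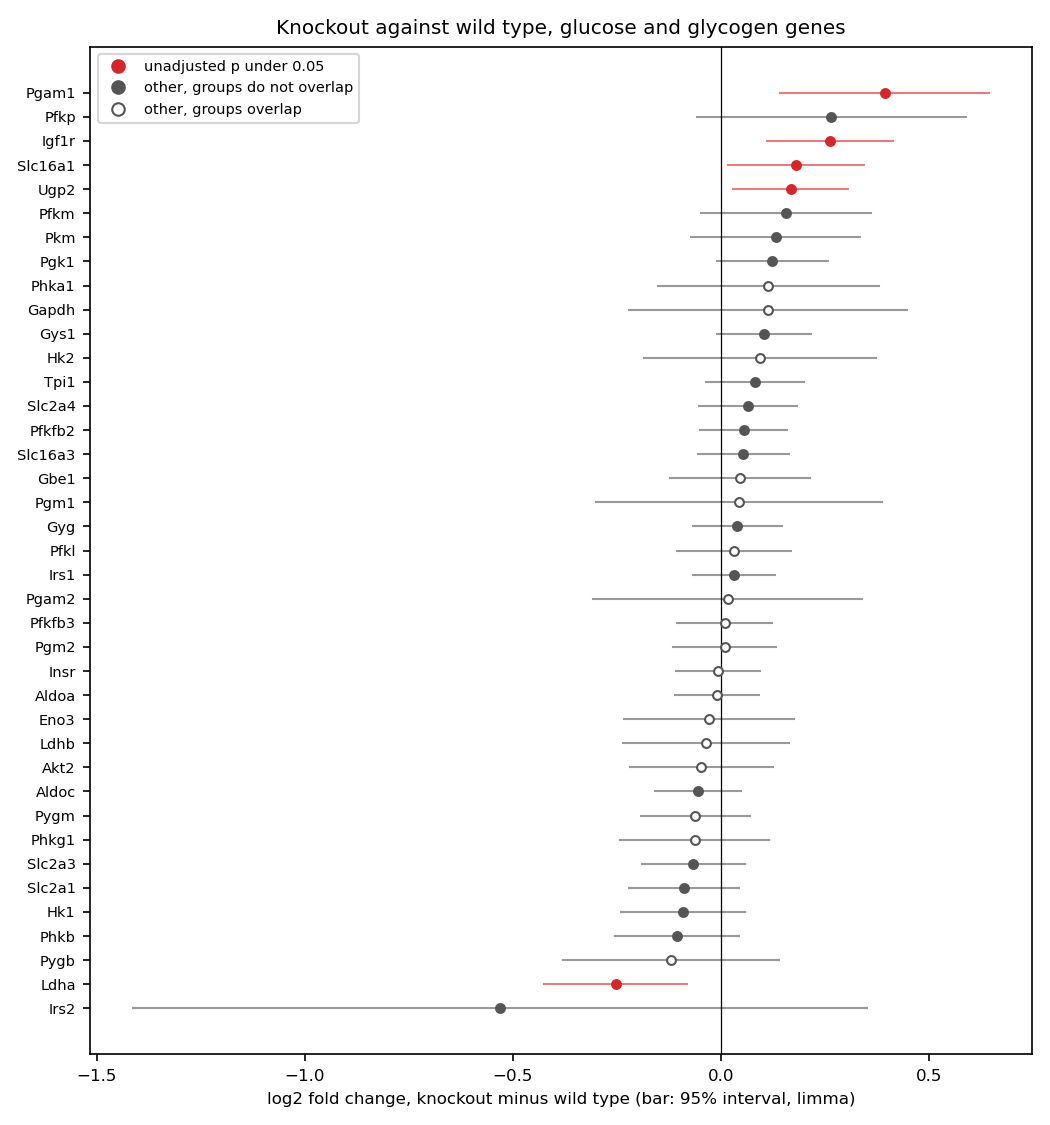
Log2 fold change, knockout minus wild type, of the 39 genes (points) with the 95% interval from limma (bars), where red marks an unadjusted p under 0.05, filled points mark groups that do not overlap and open points groups that do. Pgam1 (0.39), Igf1r (0.26), Slc16a1 (0.18) and Ugp2 (0.17) lie right of 0 and Ldha (-0.25) left of it, and Irs2 has the widest interval.

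At the lactate step, the M subunit gene Ldha was the gene of the 39 that was lower in the knockout at an unadjusted p under 0.05. LDHA favours the making of lactate, and LDHB, the heart-type H subunit, its use. The Ldha spot read 4867, 5846, 4272 and 4306 units, or 12.29, 12.44, 12.08 and 12.14 on the log2 scale. Both knockout arrays were lower. The fold change was -0.25 ± 0.06, 1.19-fold lower, with an unadjusted limma p of 0.0142 and an adjusted p of 0.727. It kept its sign in all 15 alternatives, between -0.33 and -0.12, including those that cannot move a fold change. The unadjusted p was over 0.05 in 4 of them, at 0.0806 without knockout array 1, 0.0967 with an offset of 0, 0.423 in the authors' deposited table and 0.475 with local background subtracted. Ldhb was at 13.33, 13.36, 13.40 and 13.21, a difference of -0.04 ± 0.07 with overlapping groups.

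Slc16a1 encodes MCT1, which carries lactate and pyruvate across the cell membrane and is the main form in heart. It was at 9.82, 9.78, 9.91 and 10.05, with both knockout arrays higher. The fold change was 0.18 ± 0.06, 1.13-fold, with an unadjusted p of 0.0371 and an adjusted p of 0.727, and it was -0.09 with local background subtracted. The unadjusted p was over 0.05 in 9 of 15 alternatives, and the fold change was 0.11 without knockout array 2. Slc16a3 (MCT4), the exporter of glycolytic muscle, was dim at 6.26, 6.23, 6.32 and 6.28.

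The promoters of 3 of these genes are shown because they lie on the path from glucose to lactate and had an unadjusted p under 0.05. Glycolytic genes are known targets of hypoxia-inducible factors, which bind the core ACGTG or GCGTG, and of MYC-type factors, which bind CACGTG. The sequences are the 250 bases before a listed start in RefSeq on GRCm38.p6, with the gene's strand read 5′ to 3′ and matches to either core on either strand in capitals. CACGTG contains ACGTG on both strands and so counts as 2 matches. Ldha lies at chr7:46845554-46845803 (+), Pgam1 at chr19:41911621-41911870 (+) and Slc16a1 at chr3:104638414-104638663 (+).
Ldha: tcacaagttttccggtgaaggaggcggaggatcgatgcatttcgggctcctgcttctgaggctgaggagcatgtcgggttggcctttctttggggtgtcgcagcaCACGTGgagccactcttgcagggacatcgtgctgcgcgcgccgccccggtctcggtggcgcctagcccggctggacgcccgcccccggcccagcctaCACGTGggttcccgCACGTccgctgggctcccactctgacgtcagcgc
Pgam1: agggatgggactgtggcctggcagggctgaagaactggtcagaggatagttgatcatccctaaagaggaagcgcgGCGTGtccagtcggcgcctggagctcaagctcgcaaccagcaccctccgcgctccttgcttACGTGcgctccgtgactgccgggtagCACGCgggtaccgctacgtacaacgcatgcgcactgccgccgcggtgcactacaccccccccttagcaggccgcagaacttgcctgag
Slc16a1: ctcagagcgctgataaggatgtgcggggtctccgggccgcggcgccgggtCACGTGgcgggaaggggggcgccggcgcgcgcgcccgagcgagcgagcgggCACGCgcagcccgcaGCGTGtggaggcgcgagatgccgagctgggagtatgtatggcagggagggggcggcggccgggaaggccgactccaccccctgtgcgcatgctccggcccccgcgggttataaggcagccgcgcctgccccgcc

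For Ldha the more upstream of 2 listed windows is shown, and the other, at chr7:46846832-46847081 (+), held 1 match to GCGTG and none to ACGTG or CACGTG. The printed Ldha window held 5 matches to ACGTG, including 2 copies of CACGTG, and none to GCGTG. The Pgam1 window held 1 match to ACGTG and 2 to GCGTG, and that of Slc16a1 held 2 of each with 1 CACGTG. RefSeq windows were found for 39 of the 42 listed genes, all but Insr, Slc2a3 and Slc2a4. Over their 60 windows, 40% held ACGTG, against 16.6% of all 32851 windows, 51.7% held GCGTG, against 28.2%, and 11.7% held CACGTG, against 6.02%. Their median GC content was 59.8%, against 52.4% for all windows, and its part in these shares was not tested. A match describes letters and does not show binding.

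The genes grouped here under glycogen synthesis, with Pgm1 and Pgm2 counted among them, all lay on the higher side in the knockout. These were 6 of 6, with a median of 0.05. The count was 6 with median or 75th percentile scaling and in the authors' deposited table, but 4 without wild-type array 2, 4 without knockout array 1 and 2 with local background subtracted. Ugp2 makes UDP-glucose, the donor for glycogen. It was at 10.66, 10.61, 10.85 and 10.75, with both knockout arrays higher. The fold change was 0.17 ± 0.05, 1.12-fold, with an unadjusted limma p of 0.0272 and an adjusted p of 0.727, and turned to -1.70 with local background subtracted. Among alternatives with all 4 arrays, the unadjusted limma p was over 0.05 with offsets of 16 and 0 and with median or 75th percentile scaling. It was also over 0.05 with an intensity trend and in the authors' deposited table. It was under 0.05 with local background subtracted, where the sign was reversed. The dim-probe filters, the replicate block and the mean of its 1 kept probe cannot move the fold change. With 1 array left out the fold change was 0.12 to 0.22.

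Gys1, the muscle glycogen synthase, was at 7.83, 7.78, 7.90 and 7.92, so that the groups separated by a difference of 0.10 ± 0.04 with an unadjusted p of 0.0618. It kept its sign in all 15 alternatives, between 0.07 and 0.17, including those that cannot move a fold change. Gyg, glycogenin, which primes the chain, was at 9.91, 9.89, 9.96 and 9.92, a difference of 0.04 ± 0.04. Gbe1, the branching enzyme, was at 8.79, 8.77, 8.91 and 8.75, with overlapping groups. The phosphoglucomutases Pgm1 and Pgm2 differed by 0.04 ± 0.13 and 0.01 ± 0.05. Pgm1 was at 10.99, 10.65, 10.94 and 10.79, low on wild-type array 2, and Pgm2 was at 6.10, 6.02, 6.08 and 6.07, near background. These 2 symbols follow the platform annotation, and each is an older name of the other gene in RefSeq.

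Genes of glycogen breakdown lay mostly lower, 4 of 5, with a median of -0.06, and none had an unadjusted p under 0.05. The count was 3 of 5 in the authors' deposited table and without either wild-type array. Pygm, the muscle phosphorylase, read 1091, 1128, 1008 and 1032 units, a difference of -0.06 ± 0.05 after normalization. Pygb, the brain form also found in heart, was at 10.61, 10.35, 10.39 and 10.34. For Pygb, wild-type array 1 was the high sample, and without it the difference of -0.12 ± 0.10 became 0.01. Of the phosphorylase kinase subunits, which switch phosphorylase on in response to calcium and phosphorylation, Phkb was at 6.87, 6.85, 6.69 and 6.82 with a difference of -0.11 ± 0.06. Phkg1 was at 6.71, 6.88, 6.76 and 6.70. Phka1 was the one that lay higher, by 0.11 ± 0.10, from a single array: it was at 7.02, 7.05, 7.01 and 7.29, and the difference was -0.03 without knockout array 2.

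Isozyme pairs were also followed as within-array differences, which cancel a scale factor common to all probes of an array. They do not cancel the correction offset or quantile normalization, which act unequally on dim and bright probes. Hk1 minus Hk2, for example, shifted by -0.185 in the main setting and by -0.299 with an offset of 0. Of 14 pairs 13 could be measured, and in 8 the groups did not overlap, where 36.8% of single genes over the whole array also separated. No share was computed for other pairs of probes. With 2 against 2 samples the exact permutation test cannot give a two-sided p under 0.333, so none can pass. Ldha minus Ldhb was -1.04, -0.92, -1.32 and -1.07. The shift of -0.22 compares with gaps of 0.12 and 0.25 between arrays of a group, was -0.09 without knockout array 1, and left overlapping groups with median or 75th percentile scaling and in the authors' deposited table. It turned to 0.18, also with overlap, with local background subtracted. Hk1 minus Hk2 was -3.88, -3.71, -3.99 and -3.97, a shift of -0.185. The sign and the separation held with both other offsets, local background subtracted, median scaling and the authors' deposited table, from -0.56 to -0.18. For a within-array difference, 75th percentile scaling must give the same value as median scaling. The shift was -0.27 to -0.10 with 1 array left out, and the other alternatives cannot change it. Slc2a1 minus Slc2a4 was -4.58, -4.41, -4.66 and -4.63, a shift of -0.155 that kept its sign, from -0.66 to -0.07, with overlap when local background was subtracted.

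Pgam1 minus Pgam2 overlapped between groups, at -1.80, -1.32, -1.36 and -1.01. The wild-type arrays differed by 0.475, more than the shift of 0.38, which was 0.14 without wild-type array 1, 0.20 without knockout array 2 and 0.61 without wild-type array 2. Igf1r minus Insr (0.27) and Irs2 minus Irs1 (-0.56) separated by group, but Insr and Irs1 were near background. Igf1r minus Insr turned to -0.19 with local background subtracted. Irs2 minus Irs1 was -0.06 without wild-type array 2 and -1.06 without wild-type array 1. Slc2a3 minus Slc2a4 also separated, with a shift of -0.13. Aldoc minus Aldoa shifted by -0.045, overlapped with median or 75th percentile scaling and in the authors' deposited table, and turned to 0.78 with local background subtracted. Slc16a3 minus Slc16a1 shifted by -0.13, overlapped with those settings and with offsets of 16 and 0, and turned to 0.09, also with overlap, with local background subtracted. Pfkp minus Pfkm shifted by 0.11, Pfkl minus Pfkm by -0.13, Pygb minus Pygm by -0.06 and Pgm2 minus Pgm1 by -0.04, all with overlapping groups.

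**Figure D3:**
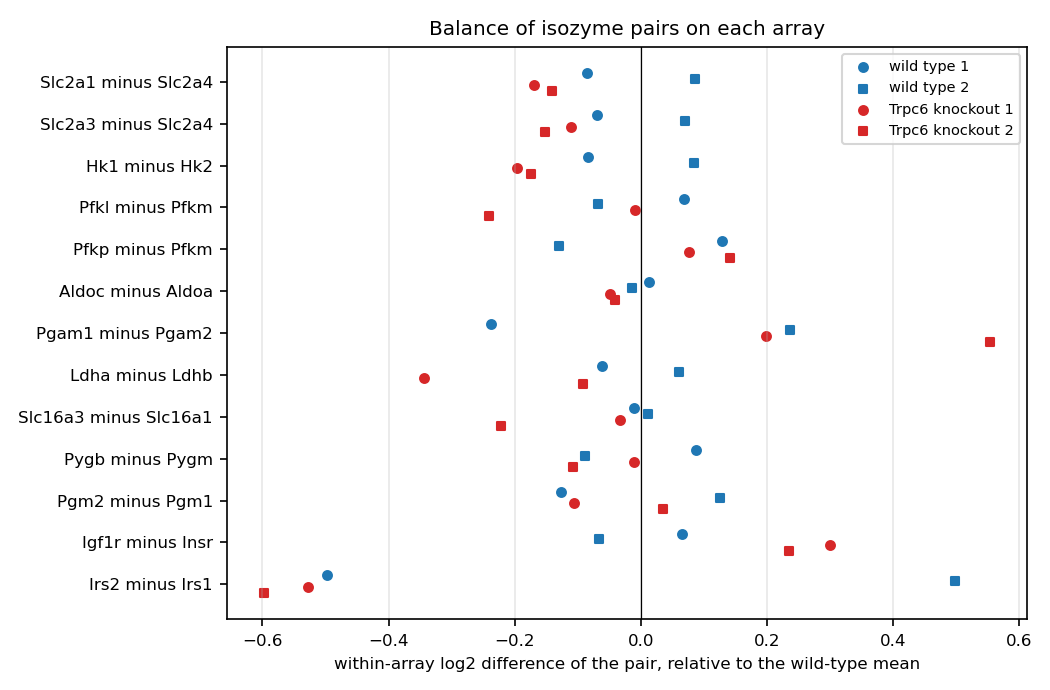
Difference in log2 intensity between the 2 genes of each pair on the same array, shown relative to the wild-type mean of that pair (horizontal axis), with 1 point per array, blue for wild type and red for Trpc6 knockout. Both knockout points lie left of both wild-type points for Hk1 minus Hk2 (shift -0.19) and Ldha minus Ldhb (shift -0.22), and the 2 wild-type points of Irs2 minus Irs1 lie farthest apart.

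Further genes of the pathway were taken from 5 lists chosen by function, with earlier results of these data known. Of 27 other genes of glycolysis and glucose transport 11 lay higher and 16 lower, and none had an unadjusted p under 0.05. Those with the smallest p were Slc16a7, a monocarboxylate transporter, at -0.09, Slc2a10 at -0.09, Fbp2, the muscle fructose bisphosphatase, at -0.13, Minpp1 at -0.16 and Bpgm at -0.11. Among 19 other glycogen genes 12 lay higher. Calm3, a calmodulin gene whose protein is also a subunit of phosphorylase kinase, was at 7.68, 7.65, 7.95 and 7.82, a difference of 0.22 ± 0.06 with an unadjusted p of 0.0137. The next were Ppp1r3f, Nhlrc1, Ppp1r3c and Gaa, between 0.06 and 0.12.

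Of 16 genes of the pentose phosphate and hexosamine paths 12 lay higher, while Prps2, which makes the ribose precursor of nucleotides, was at 6.75, 6.87, 6.62 and 6.57, a difference of -0.22 ± 0.06 with an unadjusted p of 0.0160. Pgd, Rpe, G6pd2 and Pgls followed at 0.08, -0.07, 0.06 and -0.24. Of 44 further genes of insulin and AMPK signalling 27 lay higher. Inppl1, which encodes the lipid phosphatase SHIP2, a brake on insulin signalling, was at 7.89, 8.05, 7.74 and 7.72, a difference of -0.24 ± 0.06 (unadjusted p of 0.0170). Rhoq, which encodes TC10, a GTPase linked to GLUT4 movement, was at 9.34, 9.34, 9.48 and 9.63, a difference of 0.22 ± 0.06 (unadjusted p of 0.0205). Igf2, Pdpk1 and Foxo3 were at 0.23, 0.15 and 0.38, with unadjusted p-values of 0.0683, 0.0703 and 0.103.

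Hypoxia targets outside glycolysis were listed because hypoxia-inducible factors also act on glycolytic genes. Of 19 measured, 8 lay higher and 11 lower, with a median of -0.03. Egln3, a prolyl hydroxylase of those factors, was at 8.18, 8.09, 7.76 and 7.40, a difference of -0.55 ± 0.13 with an unadjusted limma p of 0.00968. Ankrd37 was at 6.46, 6.50, 6.24 and 6.33, a difference of -0.19 ± 0.05 with an unadjusted p of 0.0152. In both, as in Ldha, the 2 knockout arrays were the lower ones, while Pgk1 and Vegfa, likewise targets, were at 0.12 and -0.12. Bnip3l, Egln1 and Epo were at -0.09, -0.23 and 0.08. Across the 5 lists 6 of 125 genes, or 4.8%, had an unadjusted p under 0.05, a smaller share than the 6.74% of all genes, and each had an adjusted p of 0.727.

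**Figure D4:**
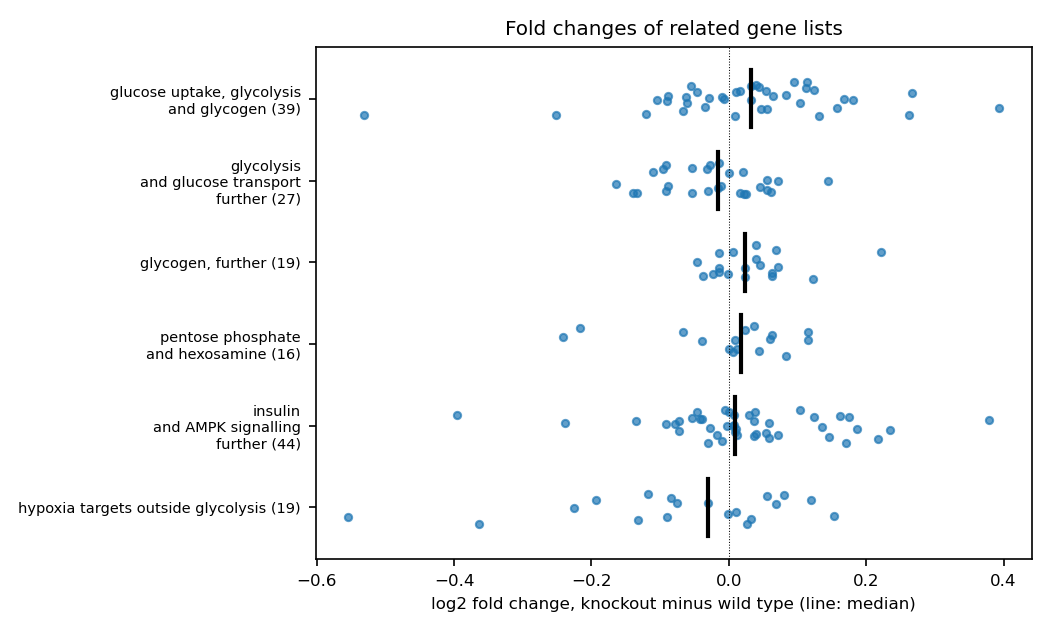
Log2 fold change, knockout minus wild type, of each measured gene (points) in the glucose and glycogen list and in 5 related lists, with the number of genes in brackets and the median as a black line. The medians lie between -0.03 and 0.03, and Egln3 (-0.55) and Irs2 (-0.53) are the lowest points.

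Markers of other cell types moved between arrays as well. Of 6 kept erythroid markers 5 lay higher, and the summed intensity of the 7 on the array was 1381, 3229, 3833 and 3960. Of 9 macrophage markers 6 lay higher, the sum was 2314, 1990, 2292 and 2666, and C1qa was at 0.32 ± 0.09. Of 8 neutrophil markers the sum was 642, 675, 575 and 536, and of the 6 kept 1 lay higher and 5 lower. Ly6g was at -0.75 ± 0.16, and the next by p, S100a9, at -0.075 ± 0.057. Of 8 fibroblast markers 4 lay higher and 4 lower, and the sum was 4876, 4400, 4190 and 3712. Dcn was at -0.47 ± 0.13 and Col3a1 at 0.487 ± 0.305. Of 6 atrial markers 3 lay higher and 3 lower, and the sum was 3724, 3698, 4513 and 6652. Nppa was at 0.64 ± 0.21 and Myl4 at -0.45 ± 0.37. Endothelial markers summed to 11200, 12500, 12500 and 13790, with 5 of 10 higher and 5 lower. The Fabp4 probe weighed most in this sum, at 12.92, 13.02, 13.12 and 13.25. Its difference was 0.218 ± 0.067, and that of Cav1 was -0.17 ± 0.21. Of 13 skeletal muscle markers 4 were above background on no array. Blood cells and macrophages express Slc2a1, Slc2a3, Hk1, Pfkp, Pfkl, Pgam1 and Ldha too, and the part of these and the other cell types in the values above was not tested.

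**Figure D5:**
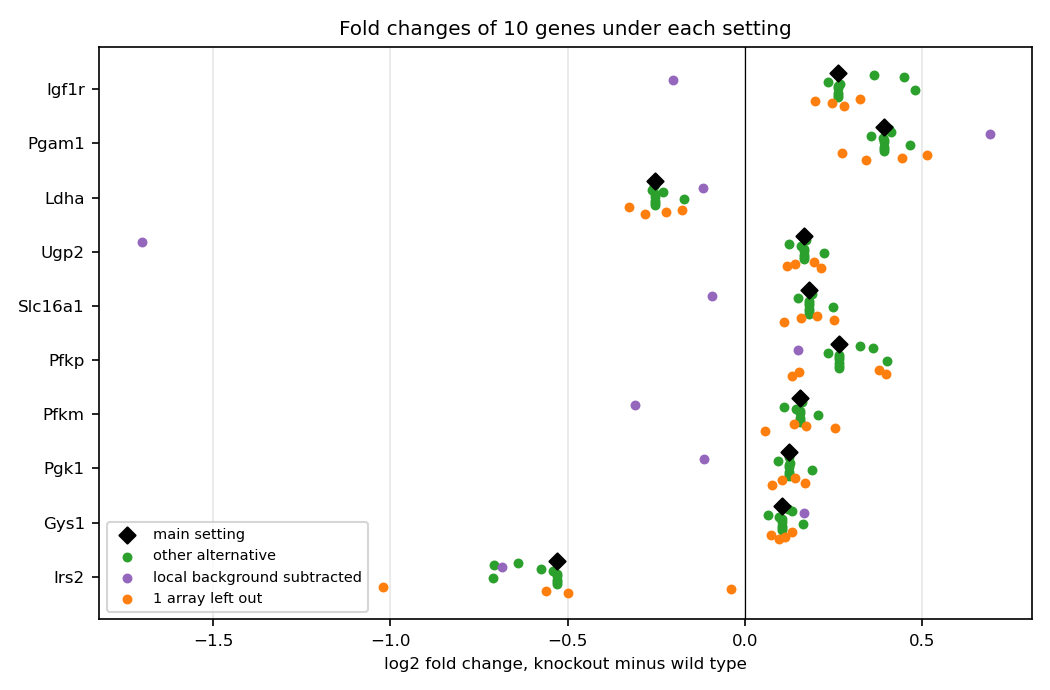
Log2 fold change, knockout minus wild type, of 10 genes under the main setting (black diamonds), with 1 array left out (orange), with local background subtracted (purple) and under the other alternatives (green). Pgam1 (0.27 to 0.69), Ldha (-0.33 to -0.12), Pfkp and Gys1 stay on 1 side of 0, Ugp2 turns to -1.70 with local background subtracted, and Irs2 depends on which wild-type array is left out.

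Brightness and background correction limit these values. Of the 39 genes, 15 lay under 2 times the background threshold on at least 1 array, and 18 exceeded 10 times the threshold on all arrays. Subtracting the local background turned the sign of 17 of the 39, median scaling that of 4, 75th percentile scaling that of Insr, and an offset of 0 or 16 that of none. The dim-probe filters, the variance trend and the replicate block cannot move a fold change. The mean of kept probes can move only that of Pfkfb2 among the 39. Any statement on signs therefore rests on the other alternatives. The sign of 11 genes held in all of them, among them Pgam1, Ldha, Pfkp, Pkm, Gys1, Slc2a4, Hk1, Phkb and Irs2.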

How the data were processed

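Per the file headers, the deposited scanner files give the median intensity of 27456 spots per array, and of its surroundings, as linear intensity at 635 nm. How the scanner gains were combined is not stated. The authors' deposited table holds linear intensity too. Against the spot medians each column was a straight line (78.4 to 87.7 units subtracted, scaled by 0.807 to 1.02, median 25, largest residual 0.0523), so scale and direction are known. The rule for 3714 to 4955 empty cells per array is not.

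Spot medians were corrected with normexp (offset 50, no local background, which correlated with the spot at 0.928 to 0.965 on the log2 scale) in limma 3.58.1 under R 4.3.3. Log2 values were quantile normalized. Probes above the 95th percentile of 384 blank and 96 negative control spots on at least 2 arrays were kept, and the brightest probe of a symbol stood for its gene. Symbols came from the platform annotation (20690 of 23473 probes). Groups were compared with lmFit and eBayes (2 residual and 2.49 prior degrees of freedom), two-sided, adjusted over 15955 genes. The fit was tested on simulated data.

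Every listed gene is named, with array values where p was under 0.05, where groups separated by at least 0.1, or for each isozyme family, and of each further list the 5 genes with the smallest p. The members, lists and tests were chosen with earlier results of these data known. Alternatives changed background, normalization, filter, values, probe choice, variance model and replicate block, or left out each array.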

Additional observations from a re-analysis of the deposited data

How the results depend on the processing

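No gene of the 39 had an adjusted p under 0.05 in any of the 15 alternatives, with limma in each. Over all genes the count of 0 became 1 without wild-type array 2, for Hba-a2 (adjusted p 0.0487). Counts of all genes at an unadjusted p under 0.05 were 1076 (585 higher), 679 (217 higher) in the authors' table, 1073 (397 higher) with median scaling and 444 to 2344 with 1 array left out. Of the 39 genes, 5 had such a p. The count was 2 with an offset of 0, 3 with median scaling, 3 with an intensity trend, 1 in the authors' table (Slc2a3, lower) and 3 to 8 with 1 array left out. Their median of 0.032 was -0.059 with local background subtracted, 0.109 in the authors' table and -0.003 to 0.056 with 1 array left out. Isozyme pairs without overlap were 8, then 5 in the authors' table and 8 to 12 with 1 array left out. They were 5 with median or 75th percentile scaling, which are the same check for a within-array difference. Genes of the 5 further lists at an unadjusted p under 0.05 were 6, then 17 with local background subtracted, 14 with the replicate block and 4 to 20 with 1 array left out. With local background subtracted Slc16a1 was -0.093, Ugp2 -1.702 and Igf1r -0.203. The cause was not tested. The replicate number as a block cannot move a fold change in this balanced design. With it 5 of the 39 genes had an unadjusted p under 0.05, and 0 of all genes passed after adjustment. Deviations of same-numbered samples correlated at 0.097 between the groups. The labels name no shared litter or batch, so whether same-numbered samples share more than a number is not known. With 1 array left out, the lone sample is assumed to vary like the other group, and a group of 1 has no range, so fewer groups overlap. The number of arrays limits every value, and 15 of the 39 genes lay close to background.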
